A study of Mus musculus with 2 samples.

Results

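The miRNAs described here are those of the miR-297, miR-466, miR-467 and miR-669 families, which in the mouse lie mostly inside the gene Sfmbt2, with miR-468, which carries a number from the same range. They were chosen by name: every mouse miRNA name on the array with 1 of these 5 numbers, any letter or arm, and no star, the older mark for the minor arm of a hairpin. The rule found 21 of 566 mouse miRNA names, of which 2 were miR-297 names, 10 miR-466 names, 5 miR-467 names, 1 miR-468 and 3 miR-669 names. Signals came from 2 RNA samples of C57BL/6J mice, 1 of whole bone marrow (total BM) and 1 of LKS cells, each on 1 single-colour Agilent miRNA array. LKS cells are bone marrow cells without lineage markers that carry Kit and Sca1, a fraction that holds blood stem and early progenitor cells. Magnetic column enrichment preceded their fluorescent sorting. The labels name no treatment or genetic change for either sample, and give no age or number of animals. With 1 array per group, no p-value or SD between replicates could be given, and every difference below describes these 2 arrays.

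MicroRNAs are short RNAs cut from hairpin transcripts that guide the silencing of messenger RNAs with a match to their seed, bases 2 to 8 of the mature miRNA. Sfmbt2 encodes a Polycomb-group protein, is imprinted and expressed from the paternal allele in early mouse embryos and the placenta, and in rodents carries a long block of repeated miRNA hairpins in an intron. This block is known for its activity in trophoblast and embryonic stem cells, and its loss from the paternal allele impairs growth of the placenta. Its miRNAs derive from amplified repeats and many are rich in alternating U and G or A and C, so near-identical copies can share signal on a probe.

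All 21 names were matched by name to miRNA genes in a RefSeq table of the assembly GRCm38.p6. Within the span of Sfmbt2 on chromosome 2 the table lists 72 miRNA genes, every one of the miR-297, miR-466, miR-467 or miR-669 families, and the 21 names stand for 48 of them. Of the 21 names, 20 have at least 1 gene inside Sfmbt2. The exception was miR-468, whose single gene lies on chromosome 6. Both arms of miR-466f have 3 genes inside Sfmbt2 and 1 outside it, on chromosome 13. Several names stand for many copies: miR-669a for 12 genes, miR-467a for 10 and miR-466b-5p for 8, so that 1 signal cannot be assigned to 1 hairpin.

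Sequences are shown for miR-468, which differed between the arrays without a detection call, and for relatives of the same numbers encoded outside Sfmbt2, which had no probe here. All are RefSeq sequences of GRCm38.p6, written 5′ to 3′. In the Mir468 hairpin the capitals mark the mature miR-468-5p that RefSeq lists, and in the mature miRNAs they mark the seed.
Mir468 hairpin: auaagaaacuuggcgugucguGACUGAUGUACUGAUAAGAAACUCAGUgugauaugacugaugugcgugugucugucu
miR-468-5p: gACUGAUGuacugauaagaaacucagu
miR-466k: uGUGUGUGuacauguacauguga
miR-669n: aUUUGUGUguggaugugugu
miR-466i-3p: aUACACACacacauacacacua
miR-467f: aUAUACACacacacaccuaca

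The array name miR-468 gives no arm, and whether its probe reads the listed mature form was not determined here. The seed ACUGAUG of miR-468-5p occurs at 2 places in the Mir468 hairpin, once in the capitals and once in the other arm. The relatives fall into those with alternating U and G and those with alternating A and C, and no 2 of the miRNAs shown share a seed. An alternating run of at least 6 bases of either kind, read on the mature strand only, was present in 8 of the 9 mature miRNAs of these numbers in the RefSeq sequence table, all 9 encoded outside Sfmbt2 and none under a name of the 21, the exception being miR-468-5p. The same run was present in 49 of all 1738 mature miRNAs of that table (2.82%).

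The sorted sample and the whole marrow differed in known blood miRNAs in the direction of their labels. The erythroid miRNAs miR-451, miR-144 and miR-486 and the lymphocyte miRNA miR-150 had a detection call in total BM but none in LKS cells. The myeloid miR-223 and the lymphoid miR-342-3p had a call on both arrays, at 822 and 38.5 in LKS cells against 7250 and 314 in total BM. Detected signals of the progenitor miRNAs miR-196b, miR-130a and miR-99a were between 145.9 and 164 in LKS cells and between 9.78 and 17.6 in total BM. The LKS array was dimmer, with 75th percentiles of 399 in total BM against 242 over the 93 mouse miRNAs that both arrays detected, a brightness ratio of 1.65. Its background was also lower: the median signal of the 416 names detected on neither array was -3.08 in total BM against -5.64, a shift of 2.56 intensity units. Signals are intensity units after background subtraction, so values below 0 occur, and each is given with the error deposited for it.

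Of the 21 miRNAs, 2 were detected in total BM and none in LKS cells, by the authors' deposited call of 0 or 1. Over all 566 mouse names the deposited call was positive for 25.6% in total BM and 17.3% in LKS cells, and over the 451 names with no star for 30.2% and 20.8%. The members detected were miR-669c and miR-466c-5p, both in total BM only, a class that held 9.19% of all mouse names. No miR-297 or miR-467 name, and not miR-468, was detected on either array. Counted by signal instead, 3 of 21 members reached 2 errors in total BM (28.3% of all mouse names) and 2 of 21 reached 3 errors (25.1%), while in LKS cells 0 of 21 reached either limit (18.6% and 16.4%). The other 19 were detected on neither array, as were 73.5% of all mouse names. Such miRNAs were not detectable at this signal, which does not show that they were missing. Whole marrow and sorted cells are mixtures, so fewer cells that make a miRNA and less of it per cell cannot be told apart.

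**Figure D1:**
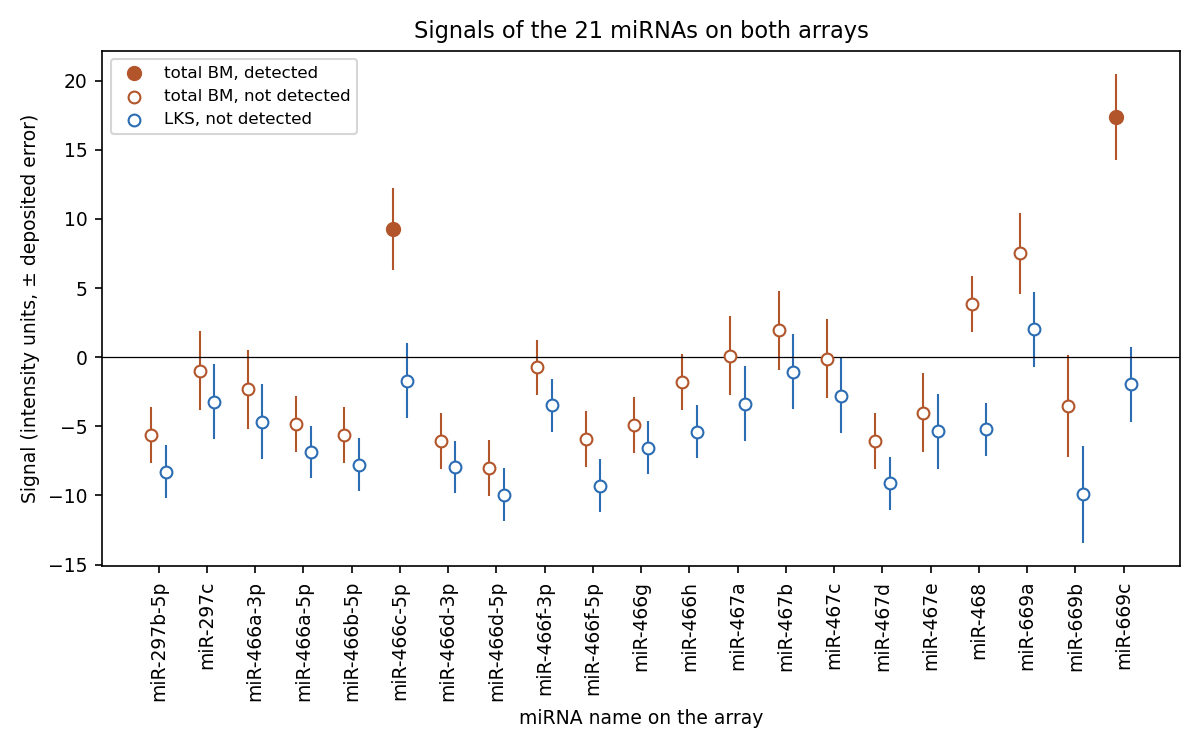
Signal of each of the 21 miRNAs in intensity units (vertical axis) on the total BM array and the LKS array, 1 array each, with bars for the deposited error and filled points for a positive detection call. Only miR-466c-5p and miR-669c have filled points, both in total BM, and every LKS point lies below its total BM point.

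MiR-669c, reported to rise in the ageing mouse liver, read 17.4 ± 3.11 in total BM against -1.96 ± 2.71 in LKS cells. The total BM signal was 5.59 times its error, and the LKS signal lay below 0. No undetected name had a higher signal on the total BM array, where the highest undetected signal was 10.4. The difference of 19.3 intensity units was 4.69 combined errors of the 2 signals, and 4.07 after the background shift between the arrays was taken out. After scaling by each array's 75th percentile, miR-669c was at least 3.04-fold lower in LKS cells. This bound sets the total BM signal, without its error, against the LKS signal plus 2 of its errors. It was the only member at least 2-fold lower by a measured ratio or a bound, a rule that 9.72% of all mouse names met, and no member was at least 2-fold higher, against 3.71%. With scaling by medians in place of 75th percentiles the bound was 2.56-fold. The bound fell to 1.38-fold when each array's background median was first taken off, and to 1.37-fold with quantile normalization. No bound was left with scaling by the 75th percentile of all mouse names.

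A dimmer array with a lower background also lowers the signal that would be read in LKS cells. With the signal above background divided by the brightness ratio of 1.65, and the LKS background added, miR-669c would have read 6.74 in LKS cells. The error of the gap to this level combines the LKS error with the total BM error divided by 1.65, and the measured signal lay 2.64 such errors below the level. For 13.6% of all mouse names the LKS signal lay over 2 such errors below its level, and miR-669c was the only 1 of the 21 members to do so. With the ratio of medians, 1.96, in place of 1.65, miR-669c lay 2.15 errors below its level.

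MiR-466c-5p read 9.28 ± 2.94 in total BM, 3.16 times its error, and -1.70 ± 2.70 in LKS cells. It was close to the limit of the deposited call: 3 undetected names had a higher total BM signal and 11 detected names a lower one. The difference of 11.0 intensity units was 2.75 combined errors, and 2.11 without the background shift. The scaled bound was at least 1.51-fold lower in LKS cells, short of 2-fold. It was at least 2.50-fold without scaling, and no bound was left when the background medians were taken off first, with quantile normalization or with scaling on all mouse names. Against the level for a dimmer array, 1.84, the LKS signal was low by 1.09 errors of that gap. RefSeq lists 3 genes for this name inside Sfmbt2, each flanked by a gene of the miR-467 family and one of miR-669a.

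MiR-468 was detected on neither array, but its signals lay apart. It read 3.87 ± 2.03 in total BM, 1.91 times its error, and -5.20 ± 1.91 in LKS cells. The difference of 9.07 intensity units was 3.26 combined errors, and 2.34 without the background shift. Among the 416 names detected on neither array, 11 (2.64%) had a total BM excess of over 2 combined errors by the latter measure, and miR-468 was the only member among them. Against the level for a dimmer array, -1.43, its LKS signal was low by 1.66 errors of that gap.

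MiR-669a, known to restrain the muscle factor MyoD in cardiac progenitors, read 7.51 ± 2.91 in total BM and 2.01 ± 2.72 in LKS cells, and was the only member with an LKS signal above 0. It had no detection call, although its total BM signal was 2.58 times its error and 9 detected names had a lower one. Its difference was 0.74 combined errors without the background shift. MiR-669b, a single-copy gene, read -3.50 ± 3.68 in total BM and -9.93 ± 3.49 in LKS cells, a difference of 0.76 combined errors on the same measure. Neither miR-669a nor miR-669b differed between the arrays beyond 2 combined errors. Whether the 3 miR-669 names differ in their change was not tested.

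All 5 miR-467 names stayed near background on both arrays. MiR-467b, known to target lipoprotein lipase in macrophages, read 1.96 ± 2.86 in total BM and -1.04 ± 2.70 in LKS cells. MiR-467a read 0.10 ± 2.85 and -3.35 ± 2.70, and miR-467c -0.11 ± 2.85 and -2.79 ± 2.70. For each of these 3 the fall from total BM to LKS cells was close to the background shift of 2.56. MiR-467d read -6.07 ± 2.01 in total BM and -9.13 ± 1.91 in LKS cells. MiR-467e read -4.02 ± 2.85 and -5.37 ± 2.70. Total BM minus LKS differences of the 5 ranged from 1.36 to 3.45 intensity units, and without the background shift from -0.31 to 0.23 combined errors.

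The 10 miR-466 names ranged from -8.01 to 9.28 in total BM and from -9.95 to -1.70 in LKS cells. Apart from miR-466c-5p all were undetected, with total BM signals below 0. The lowest signal of the members on each array was that of miR-466d-5p, which read -8.01 ± 2.01 in total BM against -9.95 ± 1.91 in LKS cells. MiR-466h, whose 5p arm is known to promote apoptosis in nutrient-starved cultured hamster cells, read -1.78 ± 2.01 and -5.40 ± 1.91, a difference of 0.38 combined errors without the background shift. The 2 miR-297 names, miR-297b-5p and miR-297c, read -5.63 ± 2.01 and -0.98 ± 2.85 in total BM and -8.27 ± 1.91 and -3.22 ± 2.70 in LKS cells, and differed by 0.03 and -0.08 combined errors on that measure.

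**Figure D2:**
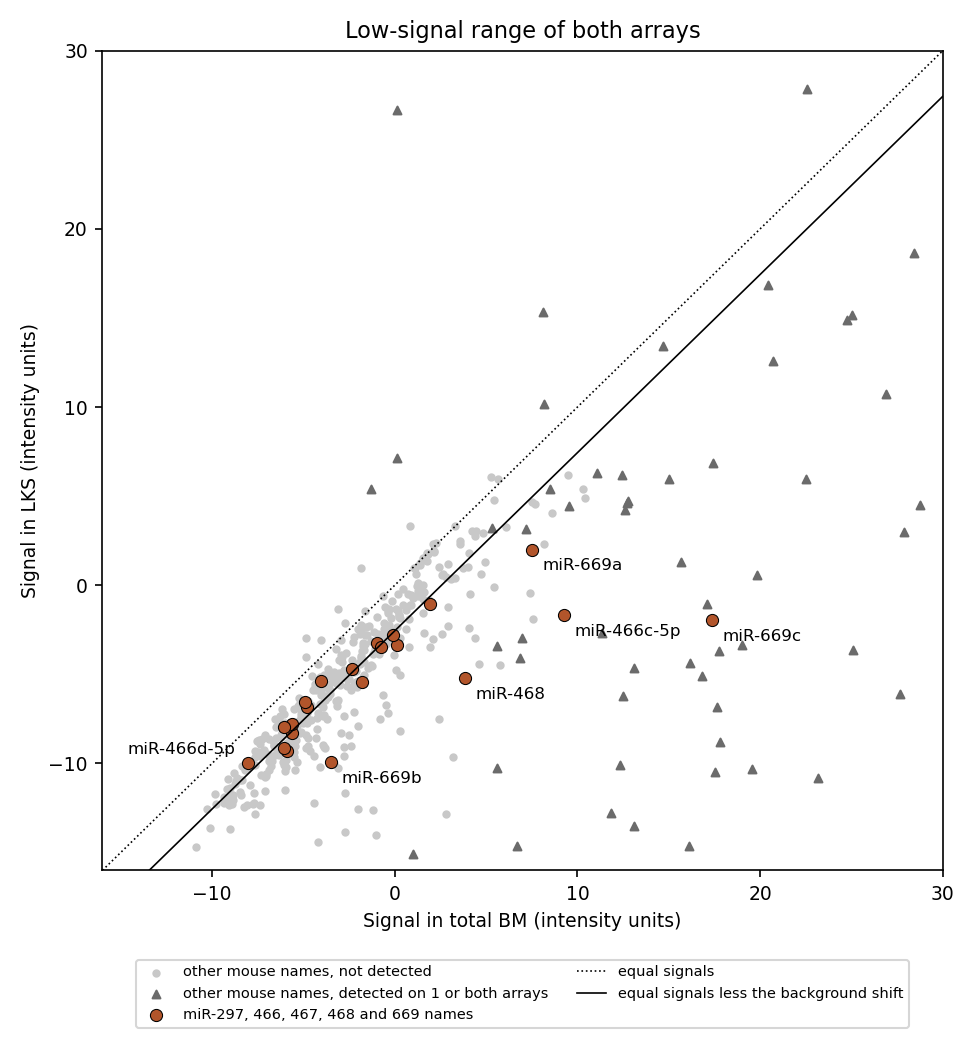
LKS signal against total BM signal, in intensity units, for mouse miRNA names with both signals under 30, 1 array per sample. The solid line marks equal signals less the background shift of 2.56 units, and most of the 21 miRNAs lie along it with the undetected names. MiR-669c, miR-466c-5p and miR-468 lie below it by over 2 combined errors. MiR-669a and miR-669b also lie below it, by 0.74 and 0.76 combined errors.

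As a group the 21 miRNAs followed the background of the arrays. Their median signal was -2.33 in total BM and -5.37 in LKS, against -1.01 and -4.30 over all 566 mouse names. For the 19 members detected on neither array the medians were -3.50 and -5.40, against -3.08 and -5.64 over all 416 such names. Signals lay below 0 for 15 of 21 members in total BM (55.7% of all mouse names) and for 20 of 21 in LKS cells (71.7%). The total BM signal was above the LKS signal for 21 of 21 members, as it was for 92.6% of all mouse names. Without the background shift, 3 of 21 members had a total BM excess of over 2 combined errors, against 17.8% of all mouse names, and 0 of 21 had an LKS excess of that size, against 3.36%. The remaining 18 lay within 2 combined errors.

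**Figure D3:**
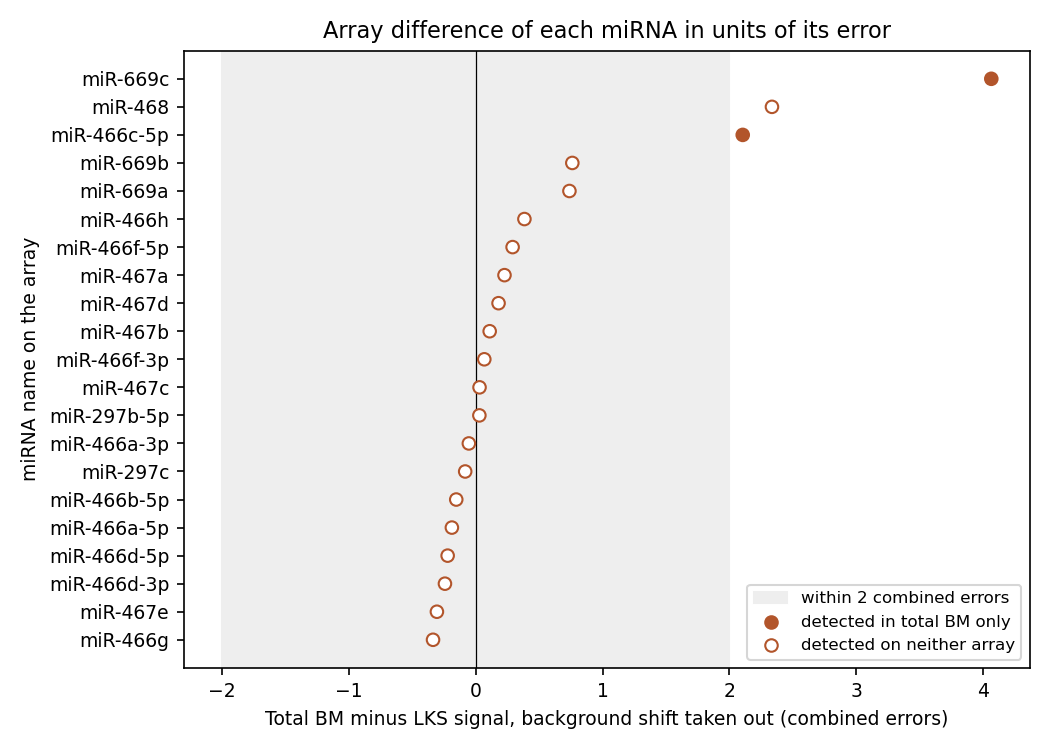
Total BM minus LKS signal of each miRNA after the background shift was taken out, in combined errors of the 2 signals (horizontal axis). MiR-669c lies at 4.07, miR-468 at 2.34 and miR-466c-5p at 2.11, and the other 18 lie between -0.34 and 0.76, inside the grey band of 2 combined errors.

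The detected names lay among undetected neighbours in the cluster. In the RefSeq order of the 72 miRNA genes inside Sfmbt2, Mir669c is number 58, between Mir297c and Mir669a-2. Neither miR-297c nor miR-669a, the names of these neighbours, was detected on either array, as was the case for 73.5% of all mouse names. The 1 signal of miR-669a stands for 12 genes, so it is not a reading of Mir669a-2 alone. The genes of miR-466c lie at numbers 26, 29 and 38, beside genes of miR-467b, miR-467a and miR-669a, names that were also undetected. None of the names with the most gene copies, miR-669a, miR-467a and miR-466b-5p, had a detection call.

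**Figure D4:**
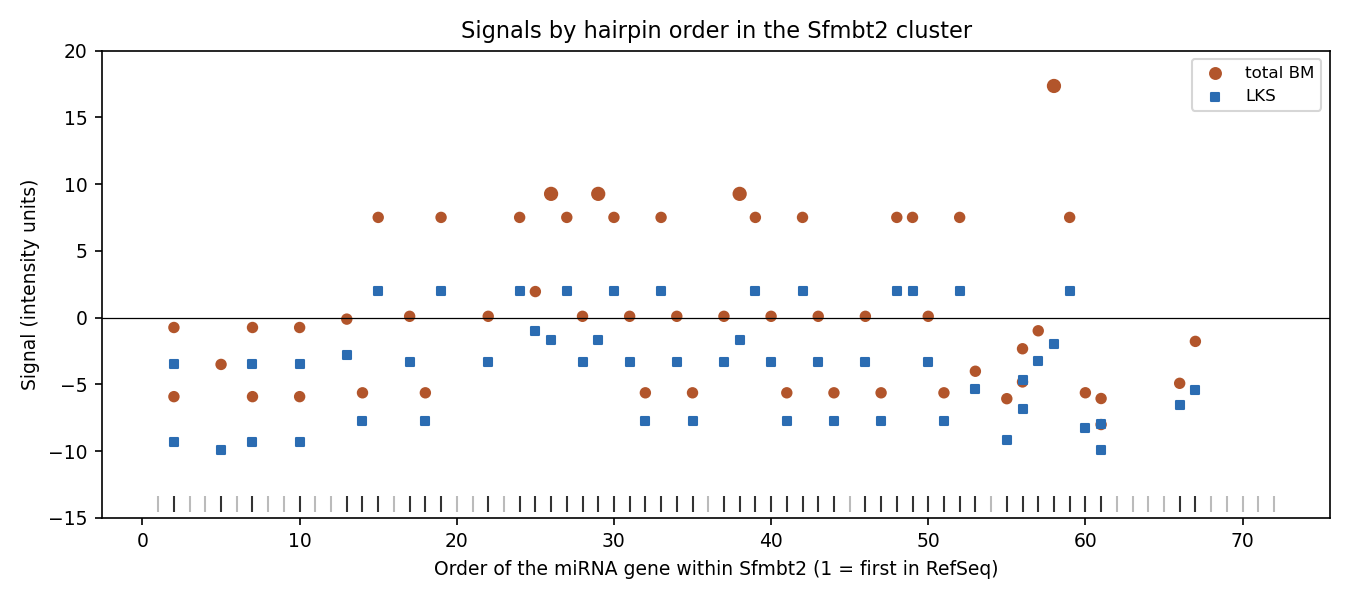
Signals in intensity units in total BM (circles, larger where detected) and LKS cells (squares) against the order of the miRNA genes inside Sfmbt2; ticks at the bottom mark all 72 genes, dark where 1 of the 21 names stands for the gene. A name with several genes is drawn at each of them with the same value, and the larger circles are the single miR-669c gene at number 58 and the 3 miR-466c genes.

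The array also carried 4 star names of the same numbers, miR-297a*, miR-467a*, miR-467b* and miR-467e*, the opposite arms of hairpins of these families. None of the 4 was detected on either array, while 7.83% of all 115 star names were detected in total BM. Their signals ranged from -3.17 to 0.77 in total BM and from -6.53 to -1.31 in LKS cells. With them, 6 hairpins had both arms on the array, those of miR-466a, miR-466d, miR-466f, miR-467a, miR-467b and miR-467e, and none of the 12 arms was detected.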

How the data were processed

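Total RNA of 2 samples was labelled with Cy3 and each was read on 1 array, per the labels' protocols. The authors deposited linear intensity values (total gene signal), each with its error and a detection call, per the file headers. Signals were background-subtracted, since many lie below 0, and were used as deposited. The sources used here do not give the rule of the call, the scanner or the software. The authors also deposited a table on a log2-like scale, used as an alternative.

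For ratios and bounds, signals were divided by the 75th percentile over mouse names detected on both arrays. Differences in combined errors used unscaled signals, set against the root of the summed squared errors, and were not corrected for brightness. For a name detected on 1 array, the floor was taken from the other array, where it was not detected. It was the higher of the other array's lowest detected signal and the probe's own signal there plus 2 errors. No test was possible with 1 array per group, and the number of arrays limits precision. The members, lists and rules were chosen with earlier results of these data known. Every detected member was named, then the 5 highest and 2 lowest undetected on each array, and miR-466h, the miR-297 names and miR-467e were named after their values were seen. The background shift and the level for a dimmer array were also chosen after seeing the data. The fold ratios and the gap to the level for a dimmer array were tested on simulated data. There, detection calls were set by a fixed cut, and changes were planted only in names brighter than every member. Recovery of changes near background was thus not tested. Python 3.11.15 with numpy 2.4.6 and pandas 2.3.3 was used.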

Additional observations from a re-analysis of the deposited data

How the results depend on the processing

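No paired analysis was possible because only 1 array was run per group, which also leaves none to omit. The count of 0 members detected in LKS cells held under the 3 other detection rules run on LKS signals. For total BM, a signal of at least 2 errors gave 3 members, with miR-669a added, and at least 3 errors gave 2. A signal above the highest undetected name gave 1, and total BM signals dimmed to the LKS brightness gave 1 at 2 and at 3 errors, in each case miR-669c. For the dimmed counts the total BM signals were divided by 1.65 with the background left in and the errors left undivided. Dividing the errors as well would leave each ratio of signal to error unchanged. These counts were all in total BM only. Members at least 2-fold lower in LKS cells were counted only among those with a detection call. They numbered 1 with the scaling used, and 2 with no scaling and in the authors' deposited value table. The count was 0 with the 75th percentile of all mouse names, with quantile normalization and with the background median taken off. A threshold of 1.5-fold gave 2 and 4-fold gave 0. In the authors' value table the uncalled miR-468 and miR-669b were also lower, with LKS minus total BM values of -2.17 and -2.15. No ratio of members detected on both arrays could be given, as there were none. The causes of these changes were not tested. The dimmed counts take the ratio of 75th percentiles as array brightness, which was not tested either.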

Other observations

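Undetected members ranked alike on the arrays, though not in an identical order. Over the 19 members detected on neither array, Pearson's r between total BM and LKS signals was 0.88 and Spearman's rho 0.87, and both were 0.87 over all 416 such names. These points share the probe design and the 2 arrays, and no source of the likeness was tested.

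Some deposited errors repeated exactly across names. On the LKS array the error was 1.91142 for 174 mouse names, none of them detected, and 10 of the 21 members were among them. On the total BM array 101 names, none detected, had an error of 2.01277, and 5 members were among them. The sources used here do not say how the error was computed.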
